A study of Homo sapiens with 6 samples.

Results

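The genes of actin and of the proteins that control it were examined in human HEK-293T cells that express the squid protein RfA1. The 46 genes were chosen by symbol and by known function. No measured value enters the rule, but it was written with earlier results of these data known. They fall into 11 classes, namely actins, the ARP2/3 complex, formins, ARP2/3 activators, depolymerizers and severers, monomer binders, capping protein, crosslinkers, myosin II, tropomyosins and the ERM membrane linkers. All 46 are among the 16655 genes of the deposited table. The filter on low counts kept 45 of them among 13002 tested genes, and MYL9 was not kept.

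Actin monomers assemble into filaments. Formins and the ARP2/3 complex start filaments, profilins and thymosins hold the monomers, cofilins take filaments apart, and capping protein closes their fast-growing ends. Tropomyosins, crosslinkers and myosin II then turn filaments into networks and contractile bundles, while ERM proteins tie them to the plasma membrane. Free actin monomers also bind the coactivator MRTF, which works with the transcription factor SRF at CArG boxes, so that several of these genes are known SRF targets.

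RfA1 is a reflectin, a protein of squid light-reflecting cells. HEK-293T is an established line from human embryonic kidney that expresses SV40 large T antigen. Cells were lipofected with the pEGFP-C1 vector alone (GFP, n = 3 libraries) or with the same vector carrying RfA1 (RfA1, n = 3 libraries), and were harvested 24 h later, so that every library comes from transfected cells with GFP. The labels of the RfA1 libraries read RA1. Transfection was transient, the sources mention no selection of GFP-positive cells, and the share of cells that took up plasmid in these RNA-seq cultures is not stated, so that in these bulk libraries fewer responding cells and less RNA per cell cannot be told apart. The RfA1 and GFP transcripts are not analysed here. Nothing in the labels says that the replicates are separate cultures, and p-values then measure only the spread between these libraries, which may be technical.

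The libraries hold 10272306 to 11566284 estimated counts. The common biological coefficient of variation in edgeR, which is shared by all genes and leaves out counting error, was 8.83%. The first principal component carried 44.6% of the variance. Its scores were -2.18, 18.2 and 12.3 in GFP replicates 1 to 3 and -16.5, 10.1 and -22 in RfA1 replicates 1 to 3, so that RfA1 replicate 2 stood with GFP replicates 2 and 3. Gene loadings on this component followed transcript GC content (Spearman's rank correlation 0.74 across genes, which are not independent). The calls that RfA1 replicate 2 alters are therefore given with and without it. All 10 HEK-293T markers were above 1 TPM (transcripts per 1000000) on average, with a summed level of 960 to 1145 TPM in the GFP libraries and 1001 to 1205 TPM in the RfA1 libraries. Of the other cell types, 3 of 9 smooth muscle and fibroblast markers (CNN1, DES and COL1A1) were above 1 TPM, with sums of 11.1 to 14 TPM in GFP and 11.9 to 13.9 TPM in RfA1 libraries. For blood cells these were 2 of 6 markers (CD14 and CORO1A), with 9.07 to 10.6 and 9.16 to 10.9 TPM. For skeletal and heart muscle 1 of 6 markers (ACTA1) passed that level, with 1.95 to 3.78 and 1.91 to 3.33 TPM. Among the markers counted here none was at 0 in every library, and 0 of those tested passed edgeR's test. Listed markers without a value are left out of these counts, and some low ones were not tested.

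Because CArG boxes are the element through which monomeric actin feeds back on its own genes, the 250 bases before each RefSeq transcription start were searched for a CArG box. Of the 41 members with a promoter entry, 4 held one (9.76%), against 394 of 27305 genes with an entry (1.44%). PFN2, MYL9, ARPC1B, WASF2 and ACTB have no entry. The boxes are shown for these 4 members and for RND3, a pathway gene outside the 46 that is described further down. Each stretch of 30 bases is written 5′ to 3′ on the strand of the gene, from RefSeq on GRCh38.p14, with the CArG box in capitals.
ACTG1, chr17:81512874-81512903, minus strand: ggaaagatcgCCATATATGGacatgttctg
FLNA, chrX:154374709-154374738, minus strand: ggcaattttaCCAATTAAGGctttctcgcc
ACTN1, chr14:68977718-68977747, minus strand: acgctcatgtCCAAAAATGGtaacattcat
TPM4, chr19:16067355-16067384, plus strand: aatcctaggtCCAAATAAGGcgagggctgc
RND3, chr2:150487748-150487777, minus strand: ctcccaggctCCATAAAAGGggaggaggca
The box lay 94 to 85 bases before the start in both ACTG1 and FLNA, 171 to 162 bases before it in ACTN1, 173 to 164 bases before it in TPM4, and 72 to 63 bases before a start of RND3. The search is the same on both strands, since the box reads alike on each. A match is a run of letters and does not show that a factor binds there.

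Actin and its partners are among the most abundant transcripts of these cells. The 46 genes together took 11355 to 11708 TPM per library, which is 1.14% to 1.17% of all transcripts, and ACTB and ACTG1 alone took 0.285% to 0.323%. The highest levels were those of profilin 1 (PFN1, 2412 TPM on average over the 6 libraries), thymosin beta 10 (TMSB10, 1734 TPM), ACTG1 (1724 TPM) and ACTB (1325 TPM). PFN1 stood clear of TMSB10 in every library, the ranges of TMSB10 and ACTG1 overlapped, and ACTB lay below both. Next came the myosin light chain MYL6 with 813 TPM and cofilin 1 (CFL1) with 747 TPM, whose ranges overlapped. After a gap, ARPC3 followed with 220 TPM, and the genes from there down to DIAPH2 (8.47 TPM) mostly overlapped with their neighbours in the order.

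Both smooth muscle isoforms among the members were very low. Smooth muscle actin (ACTA2) averaged 1.96 TPM, and the smooth muscle myosin light chain MYL9 was listed at 0 in 5 libraries and had 1 count in GFP replicate 2. A count of 0 allows up to 0.265 to 0.286 counts per 1000000 (CPM) in these libraries, for counting error only. No fold change is given for MYL9.

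**Figure D1:**
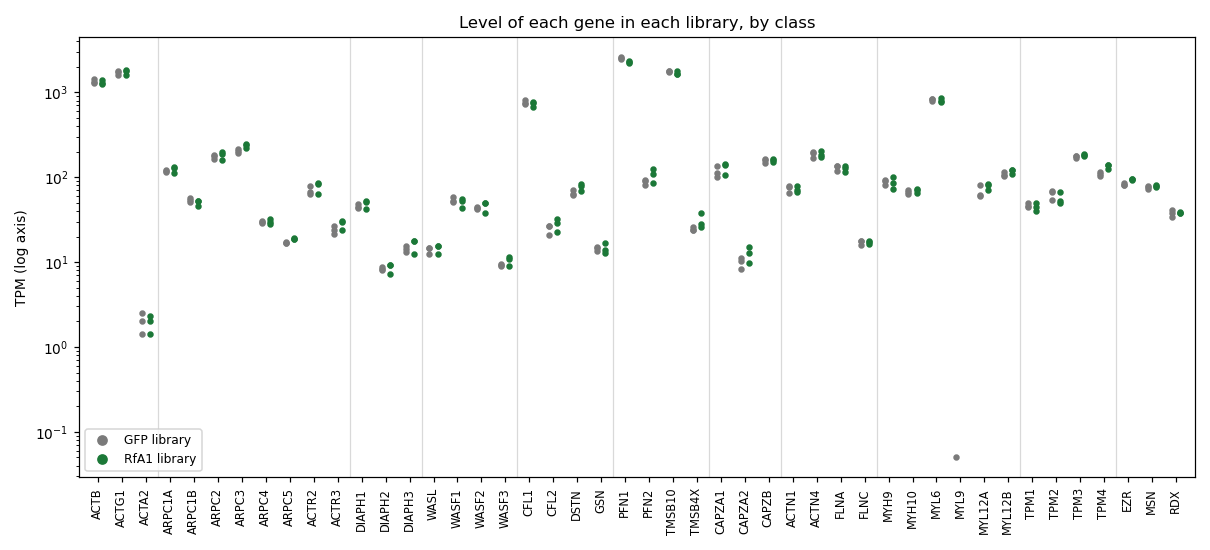
Level of each of the 46 genes in TPM (log axis) in the 3 GFP libraries (grey) and the 3 RfA1 libraries (green), with vertical lines between the 11 classes. Values of 0 cannot be drawn on a log axis, so that MYL9 has 1 point. The mean levels run from about 2412 TPM for PFN1 down to 1.96 TPM for ACTA2, with the MYL9 point lower still at 0.05 TPM, and the grey and green points of a gene lie close together.

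No member changed between GFP and RfA1 cells by the test across all genes. With edgeR's quasi-likelihood test, 0 of 45 members had an adjusted p under 0.05, beside 10 of 13002 genes (0.0769%), and the smallest adjusted p of a member was 0.278. With DESeq2 and with limma-trend on TPM the number was also 0. An unadjusted p under 0.05 was found for 2 members in edgeR (4.44%, beside 13.9% of all genes), 2 in DESeq2 and 5 in limma-trend. For DESeq2 and limma-trend the share of all genes at that level was not counted. The 2 in edgeR were tropomyosin 4 (TPM4), which was higher in RfA1 cells, and PFN1, which was lower.

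The fold changes and their intervals were narrow for most members. The log2 fold changes ran from -0.21 to 0.27, with 20 members above 0 and 25 below. Their median was -0.006, beside -0.0024 for all tested genes, and the median of their absolute values was 0.10, beside 0.13. The 95% interval of the fold change, not adjusted for the number of genes, lay within 1.5-fold either way for 43 of 45 members, beside 10544 of 13002 genes. The exceptions were ACTA2 and TMSB4X, which are the members with the fewest counts among those tested. For 14 members the interval lay within 1.2-fold, beside 2119 of all genes. These comparisons with all genes are not matched for level, and most members are among the more abundant genes of the table. They are therefore not read as a trait of the members. A change of 1.5-fold was thus outside this interval for 43 tested members, which include both cytoplasmic actins and both cofilins. They also include all tested members in the classes of the ARP2/3 complex, formins, capping protein, crosslinkers, myosin II, tropomyosins and ERM genes. Other genes of these families are not covered here, nor is MYL9, which was not tested.

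**Figure D2:**
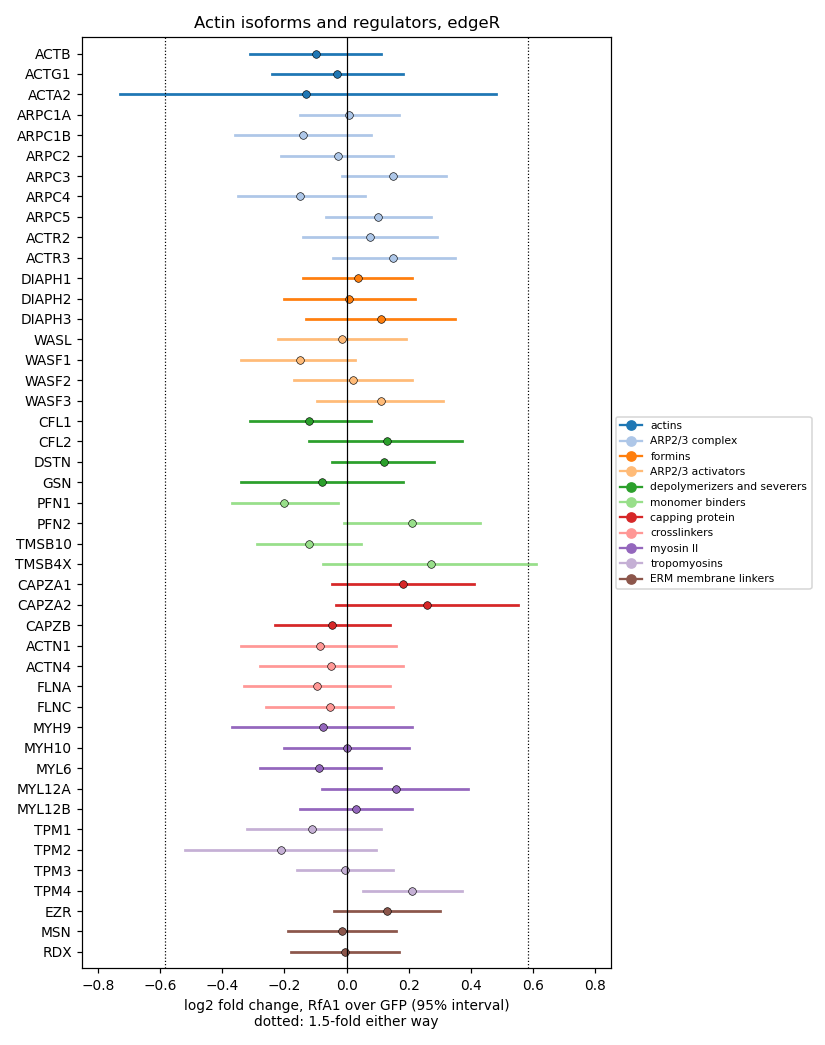
Log2 fold change of RfA1 over GFP for the 45 tested members with the 95% interval from edgeR (n = 3 against 3), coloured by class. Dotted lines mark 1.5-fold either way, and only the intervals of ACTA2 and TMSB4X cross them, while those of PFN1 and TPM4 are the 2 that leave out 0.

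The 3 actins had log2 fold changes below 0, none of them past the test, although ACTG1 lay above 0 in limma-trend on TPM and with a correction for GC content. ACTB (Gene ID 60), cytoplasmic beta-actin, had 1418, 1661 and 1516 CPM in the GFP libraries and 1361, 1619 and 1305 CPM in the RfA1 libraries. The groups overlap, since RfA1 replicate 2 lies above GFP replicates 1 and 3. The log2 fold change was -0.10 (SE 0.095, 95% interval -0.31 to 0.11, edgeR adjusted p = 0.628). ACTG1 (Gene ID 71), cytoplasmic gamma-actin, had 1911, 2215 and 2109 CPM in GFP and 2009, 2288 and 1811 CPM in RfA1 cells. Here the highest and the lowest library are both RfA1 libraries, and the log2 fold change was -0.03 (interval -0.24 to 0.18, edgeR adjusted p = 0.9). ACTA2 (Gene ID 59) had 1.53, 2.82 and 2.21 CPM against 2.09, 1.62 and 2.29 CPM. At this depth only a wide interval of -0.73 to 0.48 around a log2 fold change of -0.13 could be given. ACTB and ACTG1 encode near-identical proteins and have many processed pseudogenes, so that the split of reads between them rests on the authors' counting.

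The genes whose log2 CPM over the 6 libraries was most like that of ACTB were MYH9 (Pearson's r 0.947), ACTN1 (0.941), FLNC (0.937), FLNA (0.937) and ACTG1 (0.927). These genes encode a myosin II heavy chain, an alpha-actinin and filamins that cross-link filaments, and the other cytoplasmic actin. In each of them GFP replicate 2 and RfA1 replicate 2 were the highest libraries. The values describe 6 libraries that also share the first principal component, with which ACTB itself correlated at 0.954.

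Of the 8 genes of the ARP2/3 complex, which builds branched filaments, 5 had a log2 fold change above 0 and 3 below, and the median was 0.043. ARPC3 (Gene ID 10094) had 105, 105 and 97.2 CPM in GFP and 116, 114 and 111 CPM in RfA1 cells. Every RfA1 library lies above every GFP library, by a log2 fold change of 0.15 (SE 0.076, interval -0.016 to 0.32, edgeR adjusted p = 0.393). Subunits of this same complex did not share a direction. ARPC5 was higher without overlap (0.10, but -0.0046 with a correction for GC content) and ARPC4 lower without overlap (-0.15), although ARPC4 has fractional counts in all 6 libraries and its mean in TPM was 29.8 in GFP and 30.1 in RfA1 cells. ARPC4 and ARPC5 are named because their groups do not overlap, which was seen in the values. The other 5 subunits, ARPC1A, ARPC1B, ARPC2, ACTR2 and ACTR3, overlapped and lay between -0.14 and 0.15.

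The 3 diaphanous formins, which lengthen unbranched filaments, overlapped between the groups. DIAPH1 (Gene ID 1729) had 189, 180 and 177 CPM in GFP and 195, 173 and 192 CPM in RfA1 cells, with a log2 fold change of 0.035 (interval -0.14 to 0.21). DIAPH3 (Gene ID 81624) had 45.5, 41.4 and 41.9 CPM against 49.1, 39.1 and 51.1 CPM, with RfA1 replicate 2 the lowest of all 6. Its log2 fold change was 0.11 (interval -0.13 to 0.35, edgeR adjusted p = 0.636), and that of DIAPH2 was 0.0071. The 4 activators of ARP2/3, N-WASP (WASL) and the WAVE proteins, had 2 values on either side of 0. WASF1 (Gene ID 8936), which encodes WAVE1, had 112, 105 and 105 CPM in GFP and 98.1, 88.6 and 103 CPM in RfA1 cells. All its RfA1 libraries lie below the GFP libraries in CPM, by a log2 fold change of -0.15 (SE 0.083, interval -0.34 to 0.027, edgeR adjusted p = 0.415).

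Among the proteins that take filaments apart, the main cofilin and its relatives lay on opposite sides of 0. CFL1 (Gene ID 1072) had 570, 554 and 526 CPM in GFP and 452, 563 and 506 CPM in RfA1 cells, where RfA1 replicate 2 is again among the GFP values. The log2 fold change was -0.12 (interval -0.31 to 0.079, edgeR adjusted p = 0.548). Destrin (DSTN, Gene ID 11034), a depolymerizing factor of the same family, had 142, 136 and 134 CPM against 152, 146 and 149 CPM. Its groups do not overlap in CPM, and its log2 fold change was 0.12 (interval -0.046 to 0.28, edgeR adjusted p = 0.478). CFL2, the muscle cofilin, had 0.13 and the severing protein gelsolin (GSN) -0.08, both with overlap. With a correction for GC content these differences were close to 0 for CFL1 (-0.023), DSTN (0.03) and CFL2 (0.00057).

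The 4 monomer binders had the widest spread of fold changes. PFN1 (Gene ID 5216), the most abundant member, had 985, 1027 and 1039 CPM in GFP and 838, 963 and 857 CPM in RfA1 cells. Every RfA1 library is below every GFP library, RfA1 replicate 2 being the nearest. The ratio was 0.871 (interval 0.774 to 0.981), or a log2 fold change of -0.20 (SE 0.078, edgeR adjusted p = 0.316). TMSB4X (Gene ID 7114), thymosin beta 4, had 6.66, 6.44 and 6.27 CPM against 6.92, 7.05 and 9.34 CPM. It had the largest log2 fold change of the members with 0.27 (SE 0.16, interval -0.076 to 0.61, edgeR adjusted p = 0.447), and RfA1 replicate 3 lies well above the other two RfA1 libraries. The much more abundant thymosin TMSB10 went the other way without overlap in CPM (-0.12), and PFN2 had 0.21 with overlap. TMSB4X and TMSB10 have processed copies in the genome, and their reads are therefore less certain.

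Capping protein is a dimer of an alpha and a beta subunit, and its alpha genes had values above 0. CAPZA2 (Gene ID 830) had 39, 29.9 and 36.5 CPM in GFP and 42.3, 34.9 and 48.7 CPM in RfA1 cells, so that RfA1 replicate 2 falls within the GFP range. The log2 fold change was 0.26 (SE 0.13, interval -0.035 to 0.55, edgeR adjusted p = 0.403), and that of CAPZA1 was 0.18. The beta subunit gene CAPZB (Gene ID 832) had 164, 168 and 152 CPM against 156, 168 and 144 CPM and a log2 fold change of -0.046 (interval -0.23 to 0.14).

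All 4 crosslinkers had small log2 fold changes below 0, from -0.095 to -0.05, with overlap in each. However, ACTN4 and FLNC lay above 0 in limma-trend on TPM, and ACTN4, FLNA and FLNC did so with a correction for GC content. Alpha-actinin 4 (ACTN4, Gene ID 81) had 416, 489 and 494 CPM in GFP and 429, 518 and 405 CPM in RfA1 cells, with RfA1 replicate 2 the highest library (log2 fold change -0.05, interval -0.28 to 0.18). Filamin A (FLNA, Gene ID 2316) had 688, 837 and 810 CPM against 721, 829 and 636 CPM, and a log2 fold change of -0.095 (interval -0.33 to 0.14, edgeR adjusted p = 0.692). The ranges of the groups overlap widely in both genes, and RfA1 replicate 2 is the highest RfA1 library in each. Without that library the log2 fold changes were -0.16 for ACTN4 and -0.20 for FLNA.

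The myosin II genes form the contractile motor of non-muscle cells, and the 5 tested all overlapped between the groups. MYL6 (Gene ID 4637), the essential light chain, had 251, 260 and 241 CPM in GFP and 226, 264 and 218 CPM in RfA1 cells (log2 fold change -0.089, interval -0.28 to 0.11). The regulatory light chain MYL12A (Gene ID 10627) had 40, 32.7 and 31.1 CPM against 40.3, 37.2 and 38.2 CPM (log2 fold change 0.16, interval -0.079 to 0.39, edgeR adjusted p = 0.508). GFP replicate 1 alone brings the MYL12A groups together. The heavy chains had log2 fold changes of -0.076 for MYH9 and -0.00026 for MYH10.

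Tropomyosins run along the filament and set which other proteins can bind it. Their gene symbols TPM1 to TPM4 are unrelated to the unit. TPM4 (Gene ID 7171) had the smallest p of all members. It had 180, 174 and 178 CPM in GFP and 206, 206 and 205 CPM in RfA1 cells. In CPM the replicates of each group lie close together and the groups are well apart. Its levels in TPM were 114, 104 and 109 in GFP and 139, 126 and 140 in RfA1 cells. These groups are also apart, but their replicates are more spread. The fold was 1.16 (interval 1.04 to 1.29), or 0.21 on the log2 scale (SE 0.073, edgeR adjusted p = 0.278), which was not past the threshold. TPM3 (Gene ID 7170), the most abundant tropomyosin, had 372, 374 and 378 CPM against 361, 388 and 369 CPM, and its log2 fold change of -0.0045 (interval -0.16 to 0.15) is among the narrowest. TPM1 had -0.11 and TPM2 -0.21, both with overlap, and TPM1 has fractional counts in all 6 libraries.

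Of the ERM genes, ezrin (EZR, Gene ID 7430) had 163, 171 and 174 CPM in GFP and 183, 196 and 177 CPM in RfA1 cells. The groups are apart by a small gap, with a log2 fold change of 0.13 (interval -0.042 to 0.30, edgeR adjusted p = 0.454). Moesin (MSN) and radixin (RDX) had -0.015 and -0.006, with overlap.

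Of the 45 tested members, 6 were higher in CPM in every RfA1 library than in every GFP library (13.3%, beside 9.86% of all genes). They were ARPC3, ARPC5, DSTN, TMSB4X, TPM4 and EZR. There were 4 that were lower in CPM in every RfA1 library, namely ARPC4, WASF1, PFN1 and TMSB10 (8.89%, beside 8.01%). These shares are near those of the whole table. In TPM the groups of DSTN, ARPC4, WASF1 and TMSB10 overlapped.

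How a family divides its transcripts among its isoforms does not depend on the total a library is scaled to, although a trend with GC content can still enter where isoforms differ in it. It was compared in 11 families by exact permutation tests on TPM. With 3 libraries against 3 the smallest two-sided p that the 20 permutations allow is 0.1, so that none could pass 0.05. Gamma-actin made up 55.7%, 55.5% and 56.5% of ACTB plus ACTG1 in GFP and 58%, 56.9% and 56.5% in RfA1 cells. The means were 55.9% ± 0.541 and 57.1% ± 0.775 (SD, n = 3, exact permutation p = 0.2, 0.367 after adjustment over 11 families). The ratio of the cytoplasmic actins therefore differed by 1.21 percentage points, with the groups meeting at 56.5%.

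In 3 of the 11 families the groups did not overlap, which a random division of the 6 libraries gives with a probability of 0.1 in each family. PFN1, TMSB4X and TMSB10 are also among the single genes whose groups do not overlap in CPM, so that these shares are not separate results. PFN2 made up 3.36% ± 0.171 of PFN1 plus PFN2 in GFP and 4.43% ± 0.816 in RfA1 cells (SD, n = 3 each). TMSB4X made up 1.36% ± 0.0805 of TMSB4X plus TMSB10 in GFP and 1.77% ± 0.261 in RfA1 cells. ACTN1 made up 28.3% ± 0.261 of ACTN1 plus ACTN4 in GFP and 27.9% ± 0.0902 in RfA1 cells, a difference of -0.451 percentage points. Each had an exact permutation p of 0.1, the smallest possible, and 0.367 after adjustment over the 11 families. For PFN2, RfA1 replicate 2 had 3.54%, next to the 3.53% of GFP replicate 1, while RfA1 replicates 1 and 3 had 4.61% and 5.14%. The difference between the group means was 1.07 percentage points with RfA1 replicate 2 and 1.51 without it. The transcripts differ in GC content, with 41.6% for PFN2 and 58.5% for PFN1, and with a correction for GC content their log2 fold changes were 0.11 and -0.092, against 0.21 and -0.20 as tested. The remaining 8 families overlapped.

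**Figure D3:**
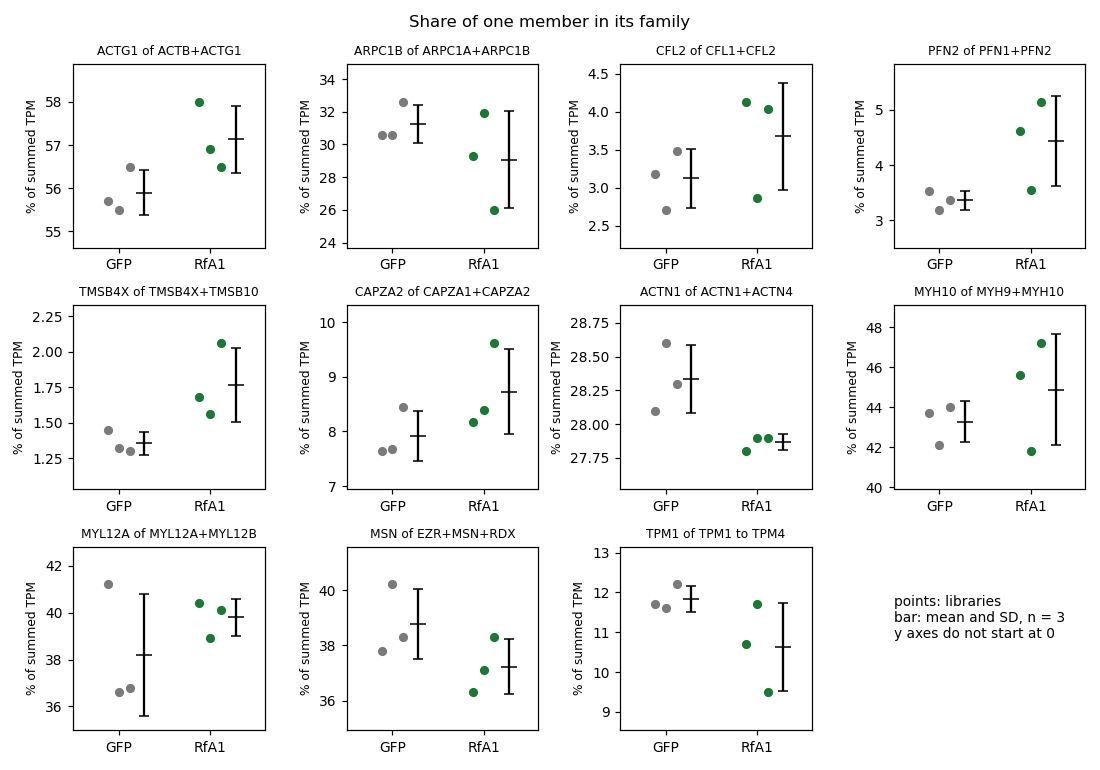
Percentage of a family's summed TPM taken by the member named in each panel, in the 3 GFP (grey) and 3 RfA1 (green) libraries, with the mean and SD beside the points (n = 3). The vertical axes do not start at 0. The groups are apart for PFN2, TMSB4X and ACTN1 and overlap in the other 8 panels.

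The order of the fold changes among members followed the GC content of their transcripts. Across the 45 members Spearman's rank correlation between GC content and log2 fold change was -0.622, beside -0.539 across all tested genes, and members share the libraries, so that this is a description. Of the 16 members with a GC content under 45%, 12 had a log2 fold change above 0. Of the 10 members with at least 55%, which include ACTB, ACTG1, PFN1, CFL1, FLNA, ACTN4 and MYH9, all 10 were below 0. When a GC trend was fitted to every library and taken out, the rank correlation was 0.0748 and 5 of those 10 members were above 0. The correction removes such a trend by design, so that this low correlation is no separate result. It would also remove a difference between the groups that follows GC content.

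Single members moved by different amounts under that GC correction. The log2 fold change of PFN1 went from -0.20 to -0.092, that of ACTG1 from -0.03 to 0.068 and that of ARPC3 from 0.15 to 0.034. TPM4 went from 0.21 to 0.19 (edgeR adjusted p = 0.0895), EZR from 0.13 to 0.14, TMSB4X from 0.27 to 0.30 and WASF1 from -0.15 to -0.21 (edgeR adjusted p = 0.0823). No member was past the threshold with the correction either.

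**Figure D4:**
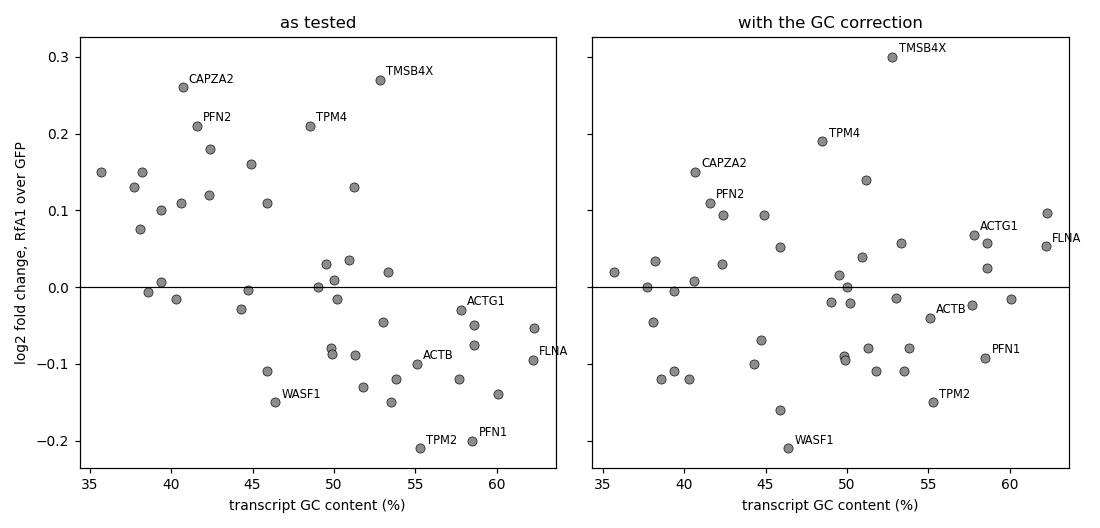
Log2 fold change of RfA1 over GFP against transcript GC content (%) for the 45 tested members, as tested (left) and with the GC correction (right). Each point is a gene. The points fall from upper left to lower right on the left (rank correlation -0.622). The correction removes such a slope by design on the right (rank correlation 0.0748), where TPM4 and TMSB4X remain high.

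**Figure D5:**
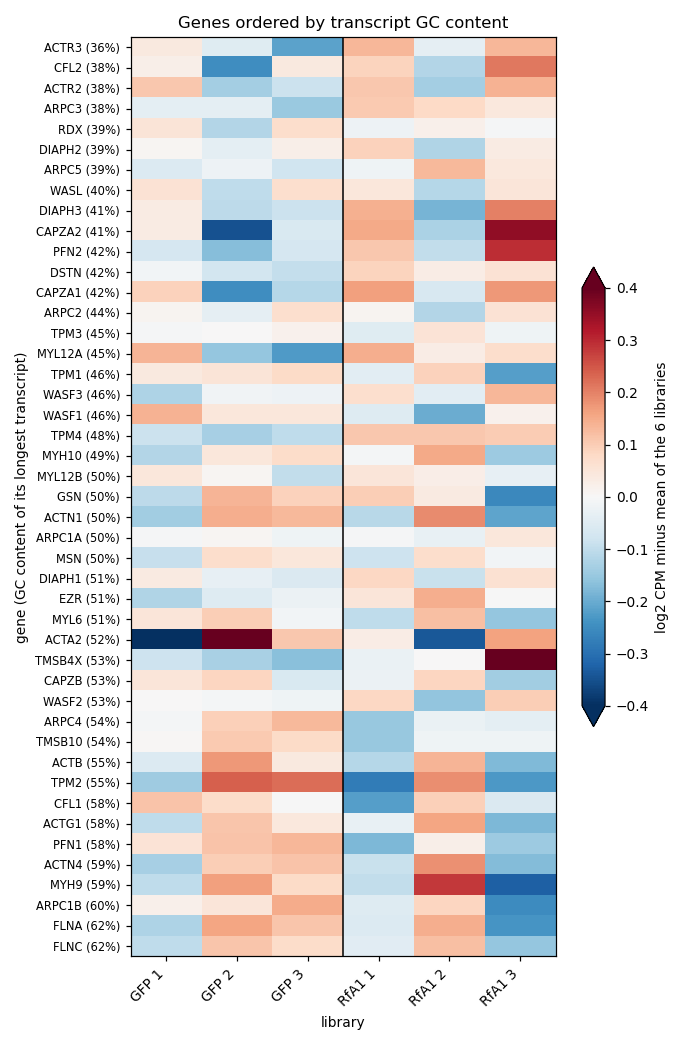
Log2 CPM of the 45 tested members in each library, minus the gene's mean over the 6 libraries, with genes ordered by the GC content of their transcript. Colours beyond 0.4 in either direction are cut off. RfA1 replicate 2 resembles GFP replicates 2 and 3, and the sign of the deviation turns from the GC-poor genes at the top to the GC-rich genes at the bottom.

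Without RfA1 replicate 2, 7 of 45 members were past the threshold (15.6%, beside 20.1% of 13129 genes). In that fit the higher genes were TPM4 (log2 fold change 0.21, edgeR adjusted p = 0.0346), CAPZA1 (0.25, 0.0432), PFN2 (0.31, 0.011) and CAPZA2 (0.37, 0.022). The lower genes were PFN1 (-0.26, 0.0119), MYH9 (-0.26, 0.0367) and TPM2 (-0.37, 0.0255). The 4 higher genes have GC contents of 40.7% to 48.5% and the 3 lower genes 55.3% to 58.6%. With all 6 libraries none of the 7 passed, and the rank correlation between GC content and fold change over the members was -0.704 without that library. Other members moved without passing, as ACTB did from -0.10 to -0.20, CFL1 from -0.12 to -0.20, MYL6 from -0.089 to -0.18 and DIAPH3 from 0.11 to 0.22. TPM2, MYH9, CAPZA1 and PFN2 are named here because of these calls, which were seen in the values.

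Among the other genes of the actin pathway, 1 passed the threshold with all 6 libraries, and it did so in 7 of the 16 alternative fits. A list of 187 further symbols, which includes plastins, coronins and further formins, had 184 genes in the table, and 163 were tested. Only RND3 passed edgeR's test, upward, and 0 passed downward, beside 10 of 13002 genes (0.0769%). An unadjusted p under 0.05 was found for 18 of the 163 (12 higher, 6 lower, beside 13.9% of all genes).

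RND3 (Gene ID 390) encodes a small protein that opposes the formation of stress fibres. It had 27.6, 27.8 and 26.4 CPM in GFP and 45.5, 38.5 and 48.9 CPM in RfA1 cells. All RfA1 libraries lie well above the GFP libraries, RfA1 replicate 2 being the lowest of them. RND3 rose 1.62-fold (interval 1.39 to 1.9), which is 0.70 on the log2 scale (SE 0.10, edgeR adjusted p = 0.0457). The fold was similar in every other fit (0.58 to 0.79 on the log2 scale), but the adjusted p ranged from 9.07e-05 to 0.365, and only 1 of the 6 fits that left out a library kept the call, the one without RfA1 replicate 2 (adjusted p = 9.93e-05). With the GC correction the log2 fold change was 0.58 (edgeR adjusted p = 0.00103). The promoter of RND3 holds the CArG box printed with those of the members. Other pathway genes outside the 46 were searched only as part of the count over all 27305 genes with an entry. Their boxes were not listed or counted apart, so that RND3 cannot be set against them here. The 4 members with a box had log2 fold changes of -0.03 (ACTG1), -0.095 (FLNA), -0.087 (ACTN1) and 0.21 (TPM4), none past the test. Whether the box bears on the change of RND3 was not tested.

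The next genes by p were not past the threshold with all 6 libraries. WASHC1, a subunit of the endosomal WASH complex that activates ARP2/3, had 438, 436 and 445 CPM in GFP and 367, 376 and 365 CPM in RfA1 cells. The difference was -0.25 on the log2 scale (interval -0.40 to -0.098, edgeR adjusted p = 0.234), and its near-identical copies elsewhere in the genome leave its reads uncertain. MYLK2, a myosin light chain kinase of skeletal muscle, had 1.44, 1.77 and 1.59 CPM against 2.73, 2.95 and 2.38 CPM (0.75 on the log2 scale, edgeR adjusted p = 0.254). These are low levels, but the groups are apart in both genes. The drebrin-like adaptor DBNL had 100, 108 and 108 CPM against 87.2, 95.5 and 80.2 CPM (-0.27, edgeR adjusted p = 0.262). Plastin 1 (PLS1), a bundling protein, had 27.5, 21.9 and 24.6 CPM against 33.3, 27 and 37.5 CPM (0.40, edgeR adjusted p = 0.267), with RfA1 replicate 2 below GFP replicate 1. Without RfA1 replicate 2, WASHC1 (-0.26, edgeR adjusted p = 0.0108), DBNL (-0.33, 0.00751) and PLS1 (0.52, 0.00435) passed, and MYLK2 did not (0.68, 0.103). With the GC correction none of these 4 passed, and the log2 fold changes were -0.12 for WASHC1, -0.20 for DBNL, 0.27 for PLS1 and 0.87 for MYLK2. In all, 32 of the pathway genes passed the threshold without that library, 16 upward and 16 downward, beside 20.1% of all genes.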

How the data were processed

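RNA-seq was compared between 3 GFP and 3 RfA1 libraries of HEK-293T cells, grouped by the sample labels. The authors deposited 1 table with NCBI Gene IDs and symbols. It holds estimated counts made by the authors without normalization, of which 7.391% to 8.016% per library are not whole, the authors' TPM and the authors' FPKM. The FPKM and the deposited averages over replicates were not used. The submitters' processing notes name HISAT and GRCh38.p13. The counting tool, annotation and strand setting are not given in the sources used here.

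Estimated counts were rounded. Genes were kept with edgeR's filterByExpr (minimum count 10, minimum total 15), which left 13002 genes, scaled by TMM, and tested with the robust quasi-likelihood test of edgeR 4.0.16 in R 4.3.3, two-sided, with Benjamini-Hochberg adjustment over all tested genes and a threshold of 0.05. CPM are counts per 1000000 of the TMM-scaled library. TPM, which account for length, were used for levels between genes and for isoform shares. Depth was 10272306 to 11566284 counts per library, and counting error enters through the counts. GC content was that of the longest transcript of a gene in GENCODE release 29, found for 98.193% of genes and all 46 members.

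The members and the lists were chosen with earlier results of these data known. Values in every library are given for the actins, for the member with the smallest p and the highest mean TPM in each class, and for the 3 largest absolute fold changes (20 genes). Of the other pathway genes those past the threshold and the 5 with the smallest p are named, and for ACTB the 5 most correlated members. Alternatives were DESeq2 1.42.0, upper-quartile scaling, total library size, no filter, at least 10 counts in every sample, a replicate block, limma-trend (limma 3.58.1) on log2(TPM + 1) and log2(TPM + 0.1), shares from CPM, and each library left out. A GC correction (an offset from a spline of 5 degrees of freedom in each library), alone and with the block, was chosen after seeing the data. The scripts were tested on simulated counts that held no GC trend, no replicate effect and no outlying library. That test therefore does not bear on how well the fits handle these features. Figures were drawn with matplotlib 3.10.9. Of the listed symbols, those without a row in the table are not analysed here.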

Additional observations from a re-analysis of the deposited data

How the results depend on the processing

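No member passed the threshold in 15 of the 16 alternative fits, and 7 passed without RfA1 replicate 2. Between 0 and 7 members thus passed when each library was left out, with 0 to 16 members at an unadjusted p under 0.05, 0 to 32 other pathway genes and 0 to 2636 of all genes past the threshold, and a median log2 fold change of the members of -0.017 to 0.016. The number of members with an unadjusted p under 0.05 was 8 with the replicate block, 5 with limma-trend on either TPM scale, and 3 with the GC correction alone, with the GC correction and the replicate block, and with no filter. The share of all genes at an unadjusted p under 0.05 was counted only in the main fit (13.9%). The member counts of the other fits thus lack such a share and are not read as a result about the members. Other pathway genes past the threshold numbered 0 with upper-quartile scaling, total library size and limma-trend on either scale, 4 with the replicate block, among them WASHC1 (adjusted p = 0.0388), DBNL (0.0416) and PLS1 (0.0224) in edgeR, and 2 with the GC correction with or without the block. Of all genes, 33 passed in DESeq2 (51.5% higher, against 80% in edgeR), 6 with upper-quartile scaling (66.7%), 20 with no filter (60%), 4 with limma-trend on either scale (100%), 625 with the replicate block (49.4%), 155 with the GC correction (71%) and 371 with both (58.5%). The median log2 fold change of the members was 0.041 and 0.043 in limma-trend, where the median of all genes was 0.045 and 0.052.

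Members near 0 changed sign in some fits, and the cause was not tested. The values below cover only the named genes that were followed across all fits. Other members near 0, among them FLNC, MYH10 and MSN, also changed sign in limma-trend on log2(TPM + 1). TPM3 was at 0.011 with total library size. In limma-trend with either pseudocount ACTG1 was at 0.027, CAPZB at 0.025, ACTN4 at 0.0021, TPM3 at 0.054 and ARPC4 at 0.011. With the GC correction ACTG1 was at 0.068, FLNA at 0.053, ACTN4 at 0.057, MYH9 at 0.025 and ARPC5 at -0.0046, and with the replicate block added these were 0.067, 0.052, 0.057, 0.017 and -0.0076. With each library left out in turn the log2 fold change ran from -0.12 to 0.047 for ACTG1 (0.019 without GFP replicate 2), from -0.33 to 0.097 for ACTA2, from -0.034 to 0.016 for TPM3, from -0.10 to 0.0083 for CAPZB, from -0.16 to 0.022 for ACTN4 and from -0.26 to 0.052 for MYH9. Of 512 values for named genes across alternatives, 460 kept their direction and side of the threshold, 30 changed sign, 13 passed the threshold only in the alternative and 9, all of RND3, lost it. In CPM the difference in isoform share was larger for CFL2 (1.54 points against 0.559 in TPM), PFN2 (2.65 against 1.07) and TMSB4X (0.714 against 0.412).

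The labels do not say that a replicate number marks a shared culture or day. Deviations from the group means correlated at 0.166, 0.321 and -0.143 between libraries numbered 1, 2 and 3, and 3 of 6 libraries correlated best with their own number, so that the numbers were not taken as pairs. At this depth, changes of ACTA2 and MYL9 are hardly measurable, and the size of change that would have passed depends on the gene. PLS1 did not pass at 1.32-fold, RND3 passed narrowly at 1.62-fold, and the interval of TMSB4X reached 1.52-fold.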
